A study of Arabidopsis thaliana with 30 samples.

Results

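The 10 genes described here make, conjugate or transport the plant hormone auxin, and they were taken by locus from the 32679 gene entries of each library. TAA1 (AT1G70560), YUC2 (AT4G13260), YUC6 (AT5G25620), YUC8 (AT4G28720) and YUC9 (AT1G04180) encode enzymes of synthesis. GH3.3 (AT2G23170), GH3.5 (AT4G27260) and GH3.17 (AT1G28130) encode conjugating enzymes, and PIN3 (AT1G70940) and PIN7 (AT1G23080) encode efflux carriers. All 10 passed the filter on low counts that 19566 entries passed. RNA was sequenced from Arabidopsis thaliana shoots in 30 libraries, 3 (A, B and C) in each of 10 groups. The genotype labels are EAR, VP16 and Col-0, the last being the common laboratory accession. In plant biology EAR stands for a repression motif and VP16 for an activation domain of viral origin, and the series title speaks of genome interrogation to enhance growth, which is commonly done with artificial zinc-finger factors carrying such domains. The EAR genotype comprises the lines EAR-13-068, EAR-15-025 and EAR-15-053 and the EAR pool 13 and EAR pool 15 backgrounds. The VP16 genotype comprises the lines VP16-02-003 and VP16-05-014 and the VP16 pool 2 and VP16 pool 5 backgrounds. Each line was compared with the pool that the number in its name points to, so that EAR-15-025 and EAR-15-053 share a pool. What a pool was made of, the promoter that drives the factors, their target sites, plant age, growth conditions and the hour of sampling are not given in the sources used here.

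Auxin, chiefly indole-3-acetic acid, is made from tryptophan in a short pathway in which TAA1 forms indole-3-pyruvic acid and the YUCCA (YUC) monooxygenases convert it to the hormone. GH3 enzymes join the hormone to amino acids, which removes it from the active pool, and several GH3 genes are themselves switched on by auxin. PIN proteins export auxin from cells and so set its direction of flow, PIN3 and PIN7 being known for bending and elongation responses. In seedlings, YUC8 and YUC9 are well known as genes that bHLH factors of the PIF family raise in warmth or shade, and PIF activity is gated by the circadian clock.

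The 300 bases before the annotated start of YUC9, YUC8, YUC2 and GH3.3 are shown because the larger differences among the 10 genes fell on these 4. They were read from the TAIR10.1 reference, 5′ to 3′ on the gene's own strand. The windows are chr1:1104193-1104492 (plus strand), chr4:14192269-14192568 (plus strand), chr4:7724071-7724370 (minus strand) and chr2:9866563-9866862 (minus strand). Capitals mark matches to CACATG, a form of the E-box that PIF factors are known to bind, or to TGTCTC, the classical auxin response element, on either strand.
YUC9: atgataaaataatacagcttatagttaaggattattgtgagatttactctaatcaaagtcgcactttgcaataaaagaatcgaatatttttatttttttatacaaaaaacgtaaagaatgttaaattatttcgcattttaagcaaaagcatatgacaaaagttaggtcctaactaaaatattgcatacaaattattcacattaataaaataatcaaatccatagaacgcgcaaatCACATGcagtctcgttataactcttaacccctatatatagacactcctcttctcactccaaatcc
YUC8: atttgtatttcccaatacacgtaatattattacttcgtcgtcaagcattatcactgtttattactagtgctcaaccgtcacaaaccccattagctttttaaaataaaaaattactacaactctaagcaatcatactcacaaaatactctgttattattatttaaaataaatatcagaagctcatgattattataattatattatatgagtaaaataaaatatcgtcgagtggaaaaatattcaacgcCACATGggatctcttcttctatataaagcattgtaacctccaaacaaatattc
YUC2: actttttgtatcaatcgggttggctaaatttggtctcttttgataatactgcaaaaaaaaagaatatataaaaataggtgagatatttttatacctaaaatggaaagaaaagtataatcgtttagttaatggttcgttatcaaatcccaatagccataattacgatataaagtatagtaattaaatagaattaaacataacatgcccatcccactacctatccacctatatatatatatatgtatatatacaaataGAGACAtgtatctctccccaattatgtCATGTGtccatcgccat
GH3.3: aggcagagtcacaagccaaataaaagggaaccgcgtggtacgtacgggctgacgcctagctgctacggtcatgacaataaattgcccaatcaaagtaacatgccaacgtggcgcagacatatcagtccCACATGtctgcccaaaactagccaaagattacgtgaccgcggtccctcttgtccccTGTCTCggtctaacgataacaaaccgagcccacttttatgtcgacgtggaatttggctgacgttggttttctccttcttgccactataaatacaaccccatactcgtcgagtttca
The sequence CACATG occurred in the windows of 5 of the 10 genes and in 13.1% of 27443 windows of the same length. Its matches began 65 bases before the start of YUC9, 53 before that of YUC8, 17 before that of YUC2, 172 before that of GH3.3 and 274 before that of GH3.17. TGTCTC occurred in 3 of the 10 (YUC2, GH3.3 and GH3.5) and in 13% of all windows. The G-box CACGTG, found in 7.09% of all windows, and TGTCGG, found in 4.91%, occurred in none of the 10. Both strands were searched and the motifs do not overlap one another in these windows. A match describes the letters in the window and does not show that a factor binds there.

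The total of reads on genes per library ran from 10076308 to 40780331 (median 19024898). Reads on an entry named VP16 numbered 101 to 491 in the 12 VP16 libraries and 0 to 2 in Col-0, but also 116, 90 and 82 in EAR-15-025 A, B and C and 142, 137 and 228 in EAR-15-053, so the EAR and VP16 ranges overlap. The shoot label was matched by RBCS1A, the Rubisco small subunit gene, at 16200 to 23600 CPM (counts scaled to a common library size). The summed level of 5 root markers was at most 1.39 CPM in any library, with EXPA7 at 0 reads in all 30, IRT1 in 23, COBL9 in 19, CASP1 in 2 and PHT1;1 in 1. That of 5 flower markers was at most 1.97 CPM, with AP1 at 0 reads in 25, AP3 in 17, PI in 7, AG in 1 and SEP3 in none. Library VP16-05-014 C stood apart from A and B of its line, with 106 CPM of the evening clock gene GI beside 39.7 and 43.7, so results on that line against its pool, against Col-0 and against the other VP16 line are given with and without it. On the VP16 entry it held 421 reads, or 26.8 CPM, beside 22.0 and 21.3 CPM in A and B. The labels do not say whether A, B and C came from separate plants, so the p-values reflect only how much these samples vary, a variation that may be technical. In whole shoots, fewer cells of a type and less RNA per cell cannot be told apart.

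Levels differed widely among the genes, the efflux carriers being highest. On the scale of CPM per kilobase of exon, the median level over the 30 libraries was 31.4 for PIN3 and 23.0 for PIN7. It was 4.98 for TAA1, 4.40 for GH3.3, 3.82 for GH3.5 and 2.82 for GH3.17. The flavin monooxygenases were lowest, at 1.47 for YUC8, 1.31 for YUC2, 0.921 for YUC6 and 0.744 for YUC9. Per library YUC9 was counted by 0 to 121 reads, YUC8 by 6 to 164, YUC2 by 15 to 152 and YUC6 by 16 to 128, so counting error is largest for these 4. None of the 10 overlaps another annotated gene of the reference.

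YUC9 had the widest range of group means, 26.1-fold between VP16-02-003 and the VP16 pool 5 background, and the other 9 ranged from 1.51-fold (PIN7) to 2.83-fold (YUC8). The VP16 pool 5 background was the lowest group for 7 genes, namely YUC2, YUC8, YUC9, GH3.3, GH3.5, GH3.17 and PIN3. When the groups were put in order of their means, neighbours overlapped in all 9 pairs for 7 genes and in 8 of 9 for YUC2, YUC9 and PIN3, so the orders are mostly not resolved beyond the spread of 3 libraries. In edgeR's quasi-likelihood test for any difference among the 10 groups, 6 of the 10 genes were called at an adjusted p under 0.05, beside 35.8% of all genes tested. They were YUC2 (adjusted p = 0.000108), YUC9 (0.000749), PIN3 (0.000877), GH3.3 (0.00858), PIN7 (0.033) and GH3.5 (0.046). Without VP16-05-014 C the test called 9 of the 10, all but GH3.17 (adjusted p = 0.0551), beside 50.9% of all genes.

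**Figure D1:**
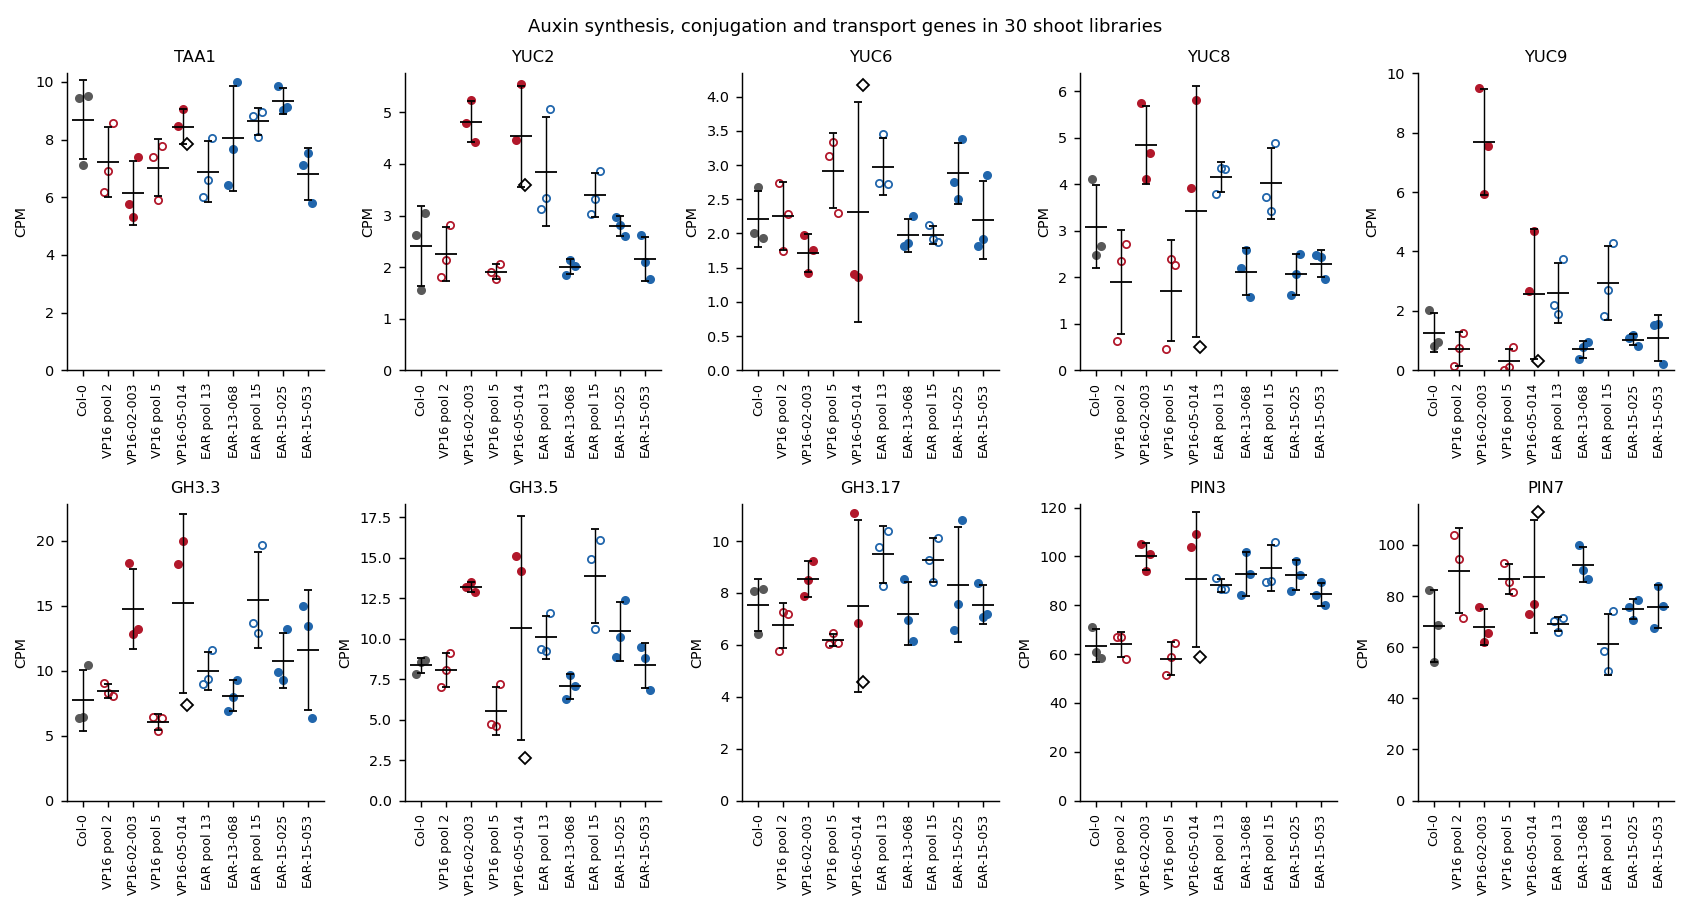
Level of each gene in CPM (vertical axes, linear, from 0) in the 10 groups (horizontal axes). Points are libraries, open circles the pools, the open black diamond VP16-05-014 C, and bars the mean ± SD of 3 libraries, cut at 0. YUC9 reached 5.95 to 9.52 CPM in VP16-02-003 and at most 4.70 elsewhere.

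Both VP16 lines carried more transcript of several of the genes than their pools. In VP16-02-003 the genes YUC2, YUC8, YUC9, GH3.3 and PIN3 rose and none of the 10 fell, 5 of 10 called beside 29.1% of all genes tested. In VP16-05-014 the genes YUC2, GH3.3 and PIN3 rose, 3 of 10 beside 1.5% of all genes. Without VP16-05-014 C, 6 rose in that line (YUC2, YUC8, YUC9, GH3.3, GH3.5 and PIN3) and YUC6 fell, 7 of 10 beside 25.7%. That library was left out with the values of these genes known, and it stood apart from A and B for several of them. The calls gained without it follow in part from that choice and lend no independent support. The median log2 fold change of the 10 was 0.68 in VP16-02-003 and 0.76 in VP16-05-014, where the medians over all genes were 0.01 and 0.00. Without VP16-05-014 C the second median of the 10 was 1.1. The 10 genes were chosen with earlier results of these data known. Their shares and medians beside those of all genes are therefore a description and not a test.

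**Figure D2:**
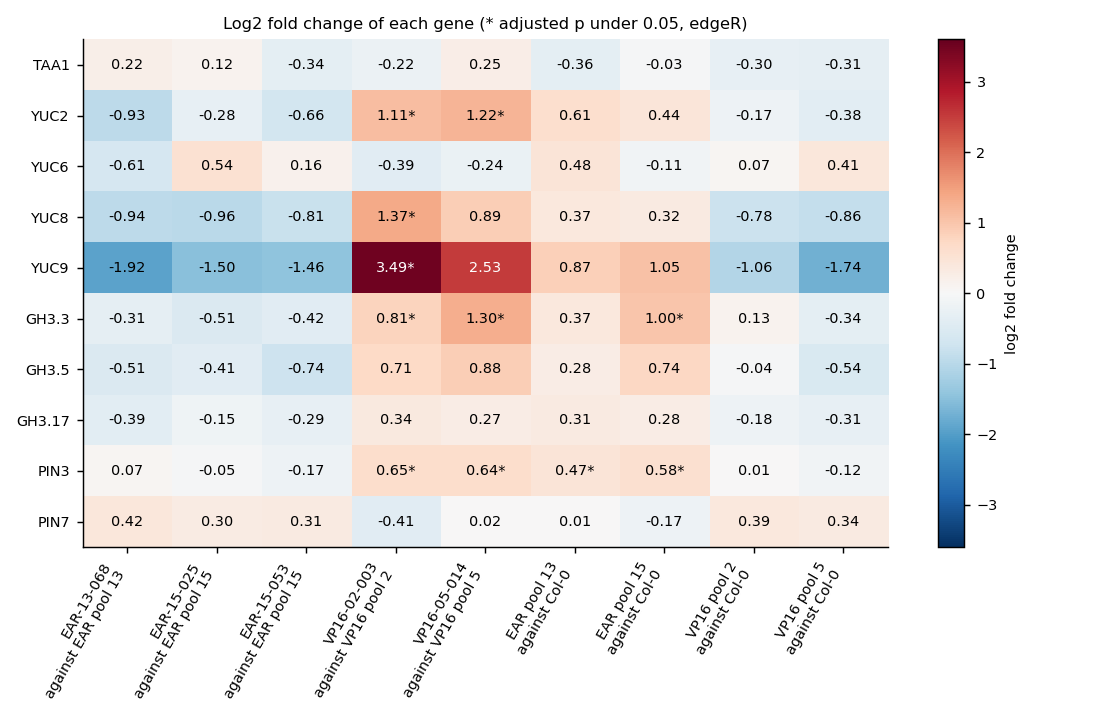
Log2 fold change of each gene (rows) in the 5 comparisons of a line with its pool and the 4 of a pool with Col-0 (columns), in edgeR's fit to all 30 libraries. Red is higher, blue lower, and an asterisk marks an adjusted p under 0.05. The 2 VP16 line columns are mostly red and the 3 EAR line columns mostly blue, with no asterisk in the latter.

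Among the synthesis genes, YUC9 moved most. Its level was 9.52, 5.95 and 7.56 CPM in VP16-02-003 A, B and C and 0.139, 0.733 and 1.26 in the VP16 pool 2 background, groups that do not overlap. The log2 fold change was 3.49 (standard error, SE, 0.66, adjusted p = 0.000571, edgeR quasi-likelihood), an 11.3-fold rise, and it was called in all 13 alternatives of the processing. In VP16-05-014 the level was 2.66, 4.70 and 0.316 CPM, against 0, 0.0924 and 0.789 in the VP16 pool 5 background. Libraries A and B of the line lay above the pool and C lay within it. The log2 fold change of 2.53 (SE 0.84) did not pass the test over all 6 libraries (adjusted p = 0.107), and it was 3.08 (SE 0.75, adjusted p = 0.00467) without VP16-05-014 C. The pool's 3 libraries together held 24 reads of YUC9, so the size of that fold is poorly fixed.

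YUC8, which encodes an enzyme of the same step, was at 5.75, 4.11 and 4.66 CPM in VP16-02-003 and at 0.625, 2.34 and 2.72 in its pool. All libraries of the line exceeded those of the pool, and library A of the pool was far below B and C. The log2 fold change was 1.37 (SE 0.48, adjusted p = 0.0364), a call that was lost on leaving out any of the 3 line libraries or pool library A or B, with an adjusted p of up to 0.151. In VP16-05-014 it was at 3.92, 5.81 and 0.505 CPM beside 0.458, 2.40 and 2.27 in the pool. The log2 fold change was 0.89 (SE 0.54, adjusted p = 0.365), and 1.44 (SE 0.43, adjusted p = 0.0177) without C. Over the 10 group means of log2 CPM, YUC8 and YUC9 had a Pearson r of 0.932, and over the 30 deviations from group means 0.786, values that share library depth and the same few high and low libraries.

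YUC2, another monooxygenase of the same step, was at 4.80, 5.24 and 4.43 CPM in VP16-02-003 and at 1.80, 2.14 and 2.82 in its pool. It was at 4.46, 5.56 and 3.6 CPM in VP16-05-014 and at 1.91, 1.76 and 2.06 in that pool. In neither case did the groups overlap, VP16-05-014 C included. The log2 fold changes were 1.11 (SE 0.21, adjusted p = 0.000623) and 1.22 (SE 0.23, adjusted p = 0.0153). The first was called in all 13 alternatives. The second was lost on leaving out VP16-05-014 B or VP16 pool 5 library B and in a fit to those 6 libraries alone, where the adjusted p was 0.264. That fit called 0 of all genes. Without C the second was 1.36 (SE 0.24, adjusted p = 0.000583).

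YUC6 and TAA1 were not called in either VP16 line over all libraries. YUC6 was at 1.97, 1.42 and 1.76 CPM in VP16-02-003 and at 2.74, 1.75 and 2.29 in its pool, ranges that overlap. In VP16-05-014 it was at 1.41, 1.37 and 4.17 CPM, C being the highest library of all 30, and at 3.13, 3.33 and 2.30 in the pool. Its log2 fold change there was -0.24 (adjusted p = 0.684) with C and -1.03 (SE 0.28, adjusted p = 0.00863) without it. TAA1, which acts before the YUC step, had log2 fold changes of -0.22 (95% interval -0.57 to 0.13) and 0.25 (-0.10 to 0.60) in VP16-02-003 and VP16-05-014, the latter 0.29 (-0.11 to 0.68) without C. Its level over all 30 libraries had a median of 7.72 CPM and a lowest value of 5.31.

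Among the conjugating enzymes, GH3.3 was at 18.3, 12.8 and 13.2 CPM in VP16-02-003 and at 9.06, 8.26 and 8.02 in its pool. It was at 18.2, 20.0 and 7.32 CPM in VP16-05-014 and at 6.41, 5.36 and 6.38 in its pool. Both lines lay above their pools in every library, with C of VP16-05-014 closest to its pool. The log2 fold changes were 0.81 (SE 0.30, adjusted p = 0.0428) and 1.30 (SE 0.31, adjusted p = 0.0411). Neither call withstood leaving out libraries: the first was lost without any 1 of its 6 libraries (adjusted p up to 0.169) and the second without any of its 6 but VP16-05-014 C. Without VP16-05-014 C the second was 1.63 (SE 0.27, adjusted p = 0.000385).

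GH3.5, which also conjugates auxin to amino acids, was at 13.2, 13.5 and 12.9 CPM in VP16-02-003 and at 7.04, 8.09 and 9.14 in its pool. The groups do not overlap, but how many of all genes separate like this was not counted. The log2 fold change of 0.71 (SE 0.32) missed the threshold in the fit with a spread shared over all groups (adjusted p = 0.0926). In VP16-05-014 it was at 15.1, 14.2 and 2.65 CPM, C being the lowest of all 30 libraries, and at 4.73, 4.62 and 7.21 in the pool. The log2 fold change was 0.88 (SE 0.34, adjusted p = 0.161) with C and 1.34 (SE 0.20, adjusted p = 0.000153) without it. GH3.17, known for acting on auxin and glutamate, had smaller log2 fold changes of 0.34 (95% interval -0.09 to 0.78) and 0.27 (-0.19 to 0.73), and neither passed. Without C the second was 0.54 (0.12 to 0.96, adjusted p = 0.054), and it was called when the other 3 libraries that stood apart were left out as well (adjusted p = 0.0375).

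The efflux carriers differed from each other. PIN3 was at 105, 94.1 and 101 CPM in VP16-02-003 and at 66.9, 67.0 and 57.9 in its pool. In VP16-05-014 it was at 104, 109 and 58.6 CPM and in that pool at 51.3, 58.7 and 64.5. Every library of VP16-02-003 exceeded its pool, whereas C of VP16-05-014 lay among its pool's libraries. The log2 fold changes were 0.65 (SE 0.15, adjusted p = 0.00253) and 0.64 (SE 0.15, adjusted p = 0.0339). The first was called in all 13 alternatives. The second was lost on leaving out any 1 of the 6 libraries but C and in a fit to those 6 alone (adjusted p up to 0.504). That fit called 0 of all genes. Without C the second was 0.86 (SE 0.10, adjusted p = 3.05e-05).

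PIN7 was at 75.6, 62.2 and 65.5 CPM in VP16-02-003 and at 104, 94.3 and 71.5 in its pool, where library C overlaps the line. The log2 fold change was -0.41 (SE 0.16, adjusted p = 0.0592). Of 13 alternatives 4 called it, among them DESeq2's Wald test. In VP16-05-014 it was at 72.8, 77.0 and 113 CPM, C being the highest of the 30 libraries, and at 92.9, 85.5 and 81.6 in the pool. The log2 fold change was 0.02 (95% interval -0.31 to 0.35), and -0.22 (-0.54 to 0.10) without C.

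**Figure D3:**
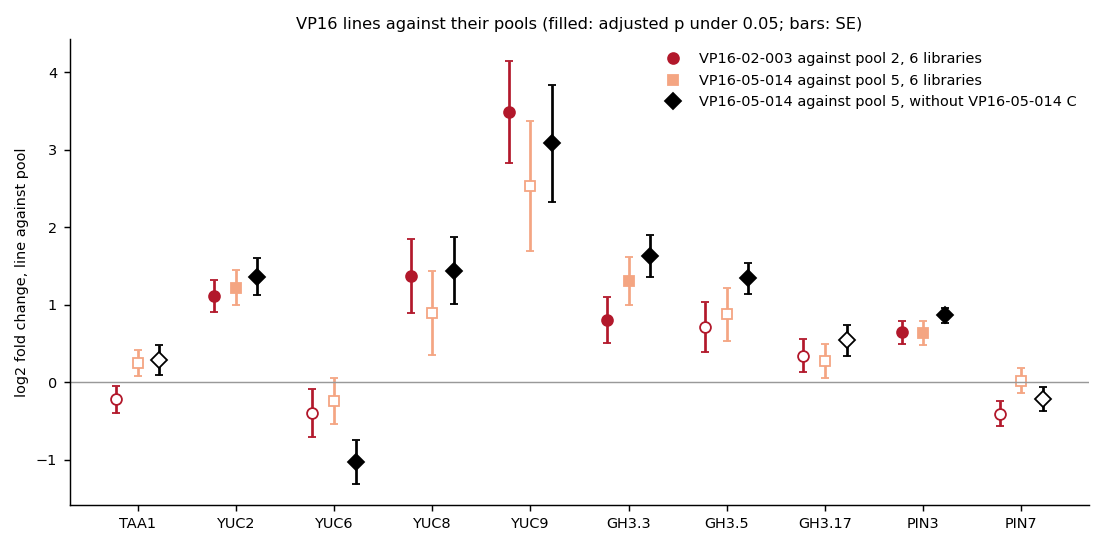
Log2 fold change (vertical axis) of each gene (horizontal axis) in VP16-02-003 against the VP16 pool 2 background and in VP16-05-014 against the VP16 pool 5 background, with and without library VP16-05-014 C. Filled symbols have an adjusted p under 0.05 in edgeR and bars are the SE. Without C, YUC8, YUC9, GH3.5 and YUC6 are also called in VP16-05-014.

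Set against each other directly, the lines VP16-02-003 and VP16-05-014 differed in none of the 10 genes, beside 8.7% of all genes called (4.07% without VP16-05-014 C). At an unadjusted p under 0.05, 3 of the 10 differed, beside 4929 of the 19566 genes tested. The intervals were wide for YUC9, with a log2 difference of 1.64 (95% interval 0.38 to 2.90, adjusted p = 0.0932), and narrow for PIN3, at 0.15 (-0.16 to 0.45). Without C these were 1.05 (-0.10 to 2.2) and -0.11 (-0.32 to 0.11). Leaving out VP16-05-014 B brought 1 gene, YUC9, past the threshold. The difference between the effects of these lines on top of their pools was called for none of the 10 either, beside 1.83% of all genes (1.27% without C). Over all libraries 0 of 10 had an unadjusted p under 0.05, beside 2714 of the 19566 genes tested. Without C, 3 of 10 had an unadjusted p under 0.05: TAA1 at -0.54 (-1.07 to -0.01), GH3.3 at -0.86 (-1.61 to -0.11) and GH3.5 at -0.66 (-1.19 to -0.13), with adjusted p of 0.351, 0.28 and 0.232. The number of all genes at that unadjusted threshold was not counted without C. For YUC9 the difference was 0.96 (-1.41 to 3.34) with C and 0.38 (-1.70 to 2.47) without it, and for YUC2 -0.10 (-0.75 to 0.54) and -0.27 (-0.93 to 0.38). DESeq2's Wald test, over all libraries, also called none of the 10 in both, beside 1922 and 509 of all genes.

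Clock genes differed in the same comparison of VP16-02-003 with its pool. Against its pool, VP16-02-003 had less GI (log2 fold change -0.96, adjusted p = 0.00523), an evening gene, and less ELF4 (-1.98, adjusted p = 0.0014). The line had more of the morning factor LHY (1.47, adjusted p = 0.000444), and a small decrease of PRR7 (-0.20, adjusted p = 0.0252) completed the 4 of 9 clock genes called, beside 29.1% of all genes. GI was at 40.9 to 55.8 CPM in that line and 72.8 to 109 in its pool, and in VP16-05-014 A, B and C at 39.7, 43.7 and 106 beside 102 to 122. Library C was thus at the level of the pools for GI, as for YUC8, YUC9 and PIN3. PRR9, a morning repressor, was at 7.28, 9.15 and 45.5 CPM in A, B and C, and PIF7 at 18.2, 19.9 and 39.5. Without C, VP16-05-014 had 5 of 9 clock genes called, in place of none, beside 25.7% of all genes, with GI at -1.42 (adjusted p = 3.05e-05). C was set apart by its GI level, so these clock calls follow in part from that choice and lend no support. Of 5 PIF genes none was called in VP16-02-003, beside 29.1% of all genes. In VP16-05-014 PIF3 fell (-0.46, adjusted p = 0.0449), beside 1.5% of all genes. Without C it was joined by PIF7 (-0.64, adjusted p = 0.00192), beside 25.7%. The part that the clock or the hour of sampling plays in the auxin genes was not tested.

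**Figure D4:**
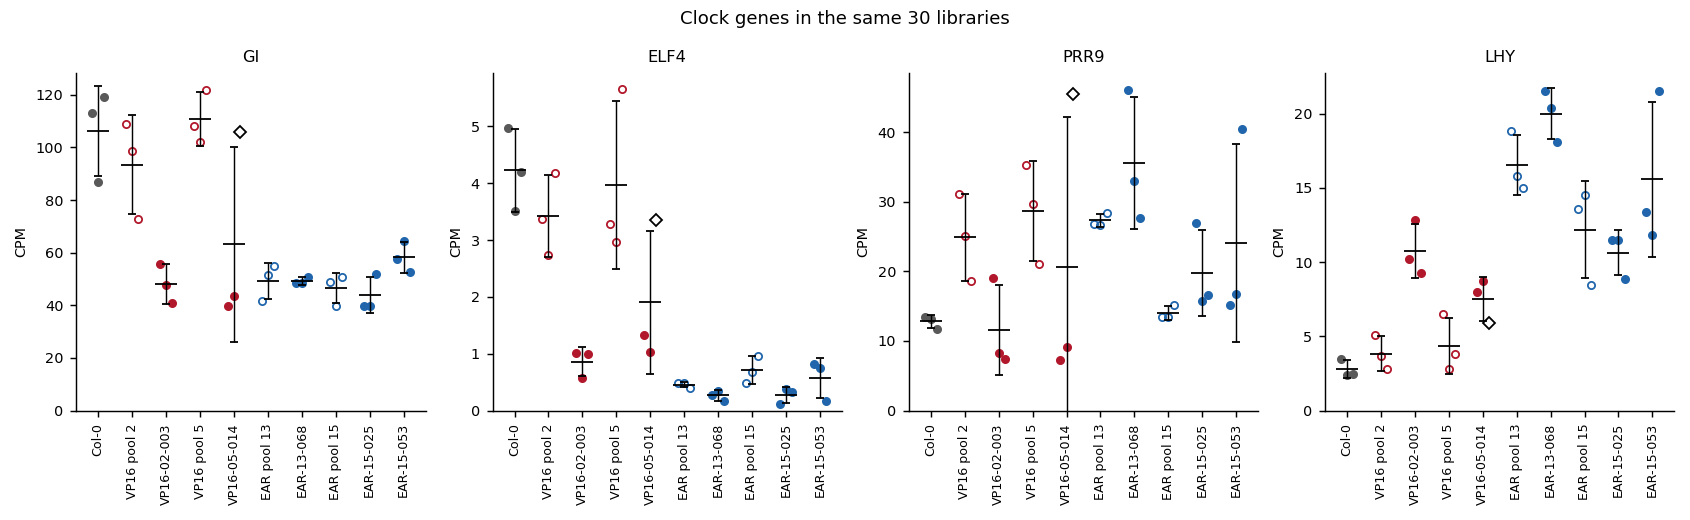
Level of 4 clock genes in CPM (vertical axes, linear, from 0) in the 10 groups. Points are libraries, open circles the pools, the open black diamond VP16-05-014 C, and bars the mean ± SD of 3 libraries, cut at 0. GI was at 40.9 to 55.8 CPM in VP16-02-003 and at 106 in VP16-05-014 C.

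No gene of the 10 was called in any EAR line against its pool by edgeR, beside 0.235% of all genes in EAR-13-068, 0.0511% in EAR-15-025 and 0.00511% in EAR-15-053. At an unadjusted p under 0.05, 5, 1 and 4 of the 10 differed, beside 2152, 1729 and 1133 of the 19566 genes tested. DESeq2's Wald test called 1, 0 and 0 of the 10, beside 148, 123 and 16 of all genes. The fold changes were negative for 7, 7 and 8 of the 10, with medians of -0.45, -0.22 and -0.38 on the log2 scale beside -0.01, -0.02 and 0.00 over all genes. The share of all genes with a negative fold change was not counted. Several of the 10 genes, such as YUC8 and YUC9, vary together over the libraries, so their signs are not 10 separate results. EAR-15-025 and EAR-15-053 share their pool libraries, so their values are not independent of each other.

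YUC2 came closest to a call in an EAR line. It was at 1.85, 2.14 and 2.03 CPM in EAR-13-068 and at 3.13, 3.35 and 5.06 in its pool, without overlap, which put its log2 fold change at -0.93 (adjusted p = 0.0515, SE 0.21). DESeq2's Wald test, scaling by library size alone and leaving out 4 libraries that stood apart each called it. In EAR-15-025 it was at 2.97, 2.82 and 2.60 CPM and in EAR-15-053 at 2.62, 2.1 and 1.77, beside 3.03, 3.32 and 3.87 in the shared pool, which lay above both.

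YUC9 was at 0.383, 0.771 and 0.956 CPM in EAR-13-068 and at 2.18, 1.89 and 3.76 in its pool, so that its log2 fold change was -1.92 (adjusted p = 0.265, SE 0.68). It was at 1.08, 1.19 and 0.831 in EAR-15-025 and at 1.53, 1.54 and 0.201 in EAR-15-053, beside 1.81, 2.70 and 4.30 in their pool. Every EAR line library was thus below every library of its pool, but no EAR line passed the test. EAR-15-025 stood at -1.50 on the log2 scale (SE 0.69) and EAR-15-053 at -1.46 (SE 0.66). Both are set against the same pool libraries, so they are not separate results. YUC8 had the same arrangement, at 1.58 to 2.59 CPM in the 9 line libraries and 3.43 to 4.89 in the 6 pool libraries, with log2 fold changes of -0.94, -0.96 and -0.81 and adjusted p of 0.45 to 0.862. PIN7 was the exception in direction, with 0.42, 0.30 and 0.31, and PIN3 lay near 0 with 0.07, -0.05 and -0.17. How many of all genes lie apart from a pool without overlap was not counted. The separation of YUC2, YUC8 and YUC9 from the EAR pools is therefore a description and not a test.

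By sign, several genes lay above the pools in the VP16 lines and below them in the EAR lines. None was called in an EAR line by edgeR. The difference between the VP16 and EAR lines was tested with a contrast chosen after seeing the data. It sets the mean effect of the 2 VP16 lines against the mean effect of the 3 EAR lines, each line against its own pool. Of the 10 genes, 8 were called, 7 with a higher effect in the VP16 lines and PIN7 with a lower one, beside 24.7% of all genes. Of 5 PIF genes, 4 were called with a lower effect in the VP16 lines and none with a higher one. The effects are those on top of the pools and not the levels of the lines. Mean PIN3, for example, was 100 and 90.5 CPM in VP16-02-003 and VP16-05-014. It was 92.9, 92.2 and 84.5 CPM in EAR-13-068, EAR-15-025 and EAR-15-053. On the log2 scale YUC9 differed by 4.64 (SE 0.69, adjusted p = 0.000138), YUC8 by 2.03 (SE 0.48, adjusted p = 0.00426) and YUC2 by 1.79 (SE 0.21, adjusted p = 1.33e-05). GH3.3 differed by 1.47, GH3.5 by 1.35, PIN3 by 0.69 and GH3.17 by 0.58, and PIN7 by -0.54. Without VP16-05-014 C, 9 were called beside 38.9% of all genes, YUC6 joining at -0.77 (adjusted p = 0.00909). The contrast speaks of these 5 lines and 4 pools, which differ in more than the domain of the factor. It rests on the pools as well as the lines. Against Col-0 the median log2 fold change of the 10 was 0.37 and 0.38 in EAR pools 13 and 15. It was -0.11 and -0.33 in VP16 pools 2 and 5. Against Col-0, YUC9 was at 2.43 and 0.79 in VP16-02-003 and VP16-05-014. In EAR-13-068, EAR-15-025 and EAR-15-053 it was at -1.05, -0.455 and -0.409, and only the value of VP16-02-003 was called.

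Few of the 10 genes passed the test between a pool and Col-0. PIN3 rose in both EAR pools, at 91.2, 86.6 and 86.5 CPM in pool 13 and 89.6, 89.8 and 106 in pool 15, all above 71.0, 60.8 and 58.3 in Col-0. The log2 fold changes were 0.47 (SE 0.15, adjusted p = 0.0422) and 0.58 (SE 0.15, adjusted p = 0.0176). PIN3 was the 1 call of 10 in pool 13, beside 8.71% of all genes, and leaving out any 1 of the 3 pool libraries or Col-0 B or C ended it (adjusted p up to 0.149). GH3.3 was also called in pool 15, at 13.7, 12.9 and 19.7 CPM beside 6.32, 6.40 and 10.4 in Col-0, 0.997 higher on the log2 scale (SE 0.30, adjusted p = 0.0447), making 2 of 10 beside 6.61%. With the replicate letter as a block, since the letters of these 2 groups deviate together, GH3.3 was no longer called (adjusted p = 0.0564) and 1 of 10 remained. The call was also lost without any 1 pool library or Col-0 A or B, and that of PIN3 without pool library C or Col-0 B or C.

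The VP16 pool backgrounds were not told apart from Col-0 in any of the 10 genes, beside 0.0153% of all genes for pool 2 and 0.00511% for pool 5. At an unadjusted p under 0.05, 1 of 10 differed in each, beside 2173 and 1915 of the 19566 genes tested. DESeq2's Wald test called none of the 10, beside 104 and 25 of all genes. The widest fold change was that of YUC9 in pool 5, -1.74 (95% interval -3.50 to 0.03). All comparisons with Col-0 share its 3 libraries.

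Against Col-0, the lines gave the following calls. VP16-02-003 had 5 of 10, beside 23.2% of all genes: YUC9 (2.43, adjusted p = 0.00661), YUC2 (0.94, 0.00319), GH3.3 (0.94, 0.0286) and PIN3 (0.66, 0.00264) were higher and TAA1 (-0.52, 0.0298) was lower on the log2 scale. The call of TAA1 was lost without VP16-02-003 A or B or Col-0 A or C (adjusted p up to 0.14), and that of GH3.3 without VP16-02-003 A or Col-0 A or B (adjusted p up to 0.143). VP16-05-014 had none, beside 0.526%, while DESeq2's Wald test called 2, beside 366 of all genes. At an unadjusted p under 0.05 there were 4 of 10, beside 2820 of the 19566 genes tested. Without C the line had 4 called (YUC2, GH3.3, GH3.5 and PIN3 higher), beside 6.49%. PIN3 was the 1 call in EAR-13-068 (0.55, adjusted p = 0.018), beside 9.29% of all genes, and in EAR-15-025 (0.54, adjusted p = 0.0339), beside 4.34%. Leaving out EAR-13-068 B, or Col-0 B or C, ended the first, and EAR-15-025 B or C, or Col-0 B or C, the second. EAR-15-053 had none, beside 10.8% of all genes. At an unadjusted p under 0.05 it had 2 of 10, beside 5321 of the 19566 genes tested. DESeq2's Wald test called none of the 10, beside 2393 of all genes.

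Other auxin genes were counted from lists that do not hold the 10. In VP16-02-003 against its pool, 8 of 15 other synthesis genes fell and none rose, beside 29.1% of all genes called in either direction, a direction opposite to that of the 3 YUC genes called. CYP79B3 (log2 fold change -1.92, adjusted p = 0.000155) and CYP79B2 (-1.70, adjusted p = 0.0141), which make indole-3-acetaldoxime, a precursor of indole glucosinolates, fell most. TSA1, a tryptophan synthase subunit, fell by 0.72 (adjusted p = 0.000226). The median of the list was -0.37, beside 0.01 over all genes. Of 12 conjugation and turnover genes, the amidohydrolases ILL2 (0.49) and ILL1 (0.36), which release auxin from conjugates and are close copies whose reads could be split between them, rose, and the methyl esterase MES17 (-0.63) fell. Of 22 other transport genes, 6 rose and 1 fell, a share near the 29.1% of all genes. They included the transporters ABCB21 (1.27) and ABCB4 (0.61) and D6PK (0.56), a kinase that activates PIN proteins, while PILS3 (-0.36) fell. ILL2, MES17, ABCB21, ABCB4, D6PK and AFB1 overlap other annotated genes, whose reads may be mixed with theirs because the use of strand is unknown. Of 9 perception genes the receptors AFB1 (0.70), AFB2 (0.54) and TIR1 (0.32) rose and none fell, again a share near that of all genes, as was the 3 of 12 above.

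**Figure D5:**
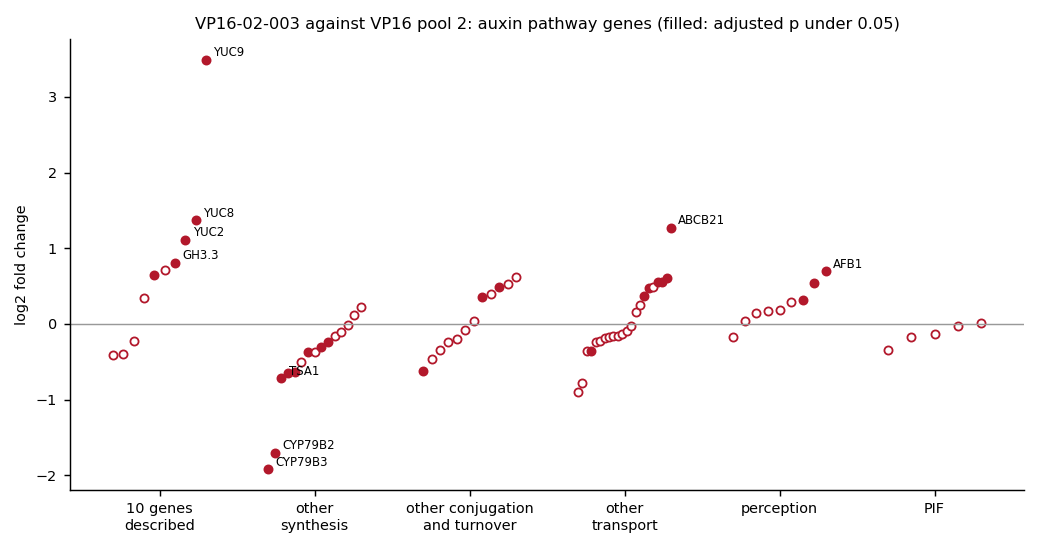
Log2 fold change (vertical axis) in VP16-02-003 against the VP16 pool 2 background for the 10 genes and for the other auxin and PIF genes tested, by list (horizontal axis). Each point is a gene, filled where the adjusted p in edgeR was under 0.05, and called genes with a change of over 0.69 are named. YUC9 stands highest at 3.49 and CYP79B3 lowest at -1.92.

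In VP16-05-014 the same lists gave D6PK higher (0.38, adjusted p = 0.0171) among the transport genes, and no call among synthesis, conjugation and perception genes. Without C, 2 of 15 synthesis genes (CYP79B2 at -1.98 and CYP79B3 at -1.25) fell and none rose, 6 of 22 transport genes rose and 1 fell, and 3 of 12 conjugation and turnover genes and 3 of 9 perception genes rose and 2 of each list fell, beside 25.7% of all genes. In the EAR lines against their pools no gene of these lists was called. Against Col-0, the auxin carrier-like gene PILS5 was higher in EAR pool 13 (1.36, adjusted p = 0.000366) and in EAR pool 15 (1.15, adjusted p = 0.00526), and it overlaps another gene, as do ASA1 and LUX. D6PK was higher in both (0.33 and 0.31), PIN4 in pool 13 (0.44), and TSB1, a tryptophan synthase subunit, lower in both (-0.58 and -0.43). CYP79B3 was lower in pool 15 (-1.39, adjusted p = 0.00687), and in pool 13 ASA1 (-0.27), for an anthranilate synthase subunit, and the amidohydrolase gene ILL6 (-1.15) were lower. The nitrilase genes NIT1 (0.63) and NIT2 (0.57), close copies whose reads could be split, were higher in pool 13 and NIT3 (0.70) in pool 15. In all, 4 of 15 synthesis genes were called in pool 13 and 3 in pool 15, beside 8.71% and 6.61% of all genes. The clock list stood beside this with 2 of 9 genes higher and 6 lower in each EAR pool, LHY at 2.51 and 2.07, CCA1 at 1.55 and 1.04, PRR5 at -3.81 and -1.77, ELF4 at -3.21 and -2.60 and LUX at -1.97 and -1.26, and PIF4 was lower in both (-0.36 and -0.54). The VP16 pools had no call in any of these lists.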

How the data were processed

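Transcripts were measured by RNA sequencing of shoots in 30 libraries. The authors deposited 1 table per library of raw read counts by gene, which are whole numbers. TopHat2 2.0.5, HTSeq and TAIR10 are named in the submitters' processing notes without a role, and how strand was used in counting is not given in the sources used here. An unknown strand setting leaves reads of overlapping genes unresolved, and reads shared by close paralogs may be lost or split. Neither library sizes nor tests include the 5 entries that name no gene, among them reads on no feature (0.765 to 1.94% of a library) and ambiguous reads (1.32 to 1.48%).

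The analysis used edgeR 4.0.16 in R 4.3.3. The function filterByExpr kept genes with a minimum count of 10, which were scaled with TMM and fitted with a quasi-likelihood model to all 30 libraries and their 10 groups, with a common biological coefficient of variation of 0.13. Calls are at 0.05 on p-values adjusted by Benjamini-Hochberg over the 19566 genes tested. The SE of a log2 fold change is its size divided by the square root of F, and 95% intervals follow from it. All adjusted p-values in the text are from edgeR's quasi-likelihood test unless another tool is named. DESeq2 1.42.0 was an alternative, as were other scalings, no count filter, a replicate block, fits without libraries and fits to the compared groups alone. The procedure was tested on simulated data.

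The 10 genes and all lists were chosen with earlier results of these data known. All 10 genes are named, and of each wider list the 3 called genes with the largest change in each direction; this holds for the VP16 lines against their pools and the pools against Col-0 over all libraries, and list genes named without VP16-05-014 C, and PRR9 and PIF7, were chosen after their values were seen. The contrast between VP16 and EAR lines, and the counts of the wider lists without VP16-05-014 C, were added after seeing the data. Deviations of like-lettered libraries were correlated by more than 0.1 for all 3 letters only for Col-0 and EAR pool 15 (0.279, 0.207 and 0.15), so that this pairing rests on the data, no label stating it. Counts between replicates differed by more than sampling noise in every pair. Promoter windows, exon lengths and names are those of the TAIR10.1 reference, whose name differs from the submitters' build. Figures were drawn with matplotlib 3.10.9.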

Additional observations from a re-analysis of the deposited data

Results flagged for a closer look

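The effect of the VP16 lines on top of their pools differed from that of the EAR lines for 8 of the 10 genes. This was a test of the difference itself, and it called 24.7% of all genes tested. On the log2 scale the difference was 4.64 for YUC9, 2.03 for YUC8 and 1.79 for YUC2 among the synthesis genes, and 1.47 for GH3.3, 1.35 for GH3.5 and 0.584 for GH3.17 among the conjugating enzymes. It was 0.687 for PIN3 and -0.537 for PIN7, the efflux carriers. The contrast was chosen after seeing the data and rests on the pools as well as the lines. YUC2, YUC8, YUC9, GH3.3, GH3.5 and PIN3 were called in all 34 alternatives. These refit the same libraries from which the contrast was chosen, so they show dependence on processing and give no independent support. PIN7 was called in 33 of 34, the exception being the fit without EAR pool 15 library B (adjusted p = 0.0519), and GH3.17 in 14 of 34 (adjusted p up to 0.122).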

How the results depend on the processing

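Of 170 fold changes, 26 were called, and these kept their sign in all 506 alternative values and their call in 428. Of the 144 uncalled ones, 45 changed sign in some alternative (128 values, none of them called), the largest of the 45 being 0.964 on the log2 scale over all libraries. Leaving out 1 library moved the number of the 10 genes called to between 3 and 5 for VP16-02-003 against its pool, 0 and 7 for VP16-05-014 against its pool, 0 and 1 for EAR pool 13 against Col-0 and 0 and 2 for EAR pool 15 against Col-0. Calls over all genes moved as well, in the same order to 3756 to 4779, 2 to 5075, 780 to 1271 and 430 to 914. Against Col-0 the range for the 10 genes was 0 to 2 for EAR-13-068, 0 to 1 for EAR-15-025, 3 to 5 for VP16-02-003 and 0 to 4 for VP16-05-014, and between the VP16 lines 0 to 1. Over all genes these ranges were 904 to 1930, 434 to 652, 2926 to 3809, 22 to 1282 and 802 to 2598. Without the 4 libraries that stood apart (VP16 pool 2 C, VP16-05-014 C, EAR-15-053 C and EAR-15-025 A) the counts were 2 for EAR-13-068 against its pool, 8 for VP16-05-014 against its pool, 10 for any difference among the groups, and, against Col-0, 2 for EAR pool 13, 1 for VP16 pool 2, 2 for EAR-13-068, 2 for EAR-15-053 and 4 for VP16-05-014. Calls over all genes rose too, in the same order to 605, 6063, 11491, 3567, 1972, 3827, 4202 and 2592. With all 30 libraries they were 46, 293, 7010, 1705, 3, 1818, 2112 and 103. Scaling by library size alone gave 1 for EAR-13-068 against its pool and 2 for EAR pool 13 against Col-0, and DESeq2's Wald test gave 1 for EAR-13-068 against its pool and 2 for VP16-05-014 against Col-0. In the same order 54, 1713, 148 and 366 of all genes were called. A fit to VP16-05-014 and its pool alone gave 0 of the 10 and 0 of all genes. The cause was not tested. With the replicate letter as a replicate block, EAR pool 15 against Col-0 gave 1 in place of 2, and no other count moved by over 1.5 times; within the comparisons that kept their counts, GH3.3 was lost under the block in both VP16 lines against their pools, where the letters share only a number. Depth limits YUC9 most, with a median of 26 reads per library.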

Other observations

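For each gene, the genes whose group means of log2 CPM were most like its own over the 10 groups were listed by Pearson r, as a description of these libraries, which share their depth and the same few high and low groups. The best 3 for YUC8 were AT3G26550 (0.98), AT4G33610 (0.956) and HB-2 (0.949), a homeobox gene well known as a marker of shade responses. Over the 30 libraries taken singly, HB-2 stayed at 0.936 while the other 2 were at 0.614 and 0.393. For YUC9 they were FLP1 (0.969), ACS8 (0.961), which encodes an enzyme of ethylene synthesis, and AT4G25260 (0.958), and the last was also second for YUC2 (0.949). PIN3 was most like GEM (0.978) and PIN7 most like bHLH34 (0.946). The number of genes with an r over 0.9 was 219 for GH3.3, 148 for GH3.5, 142 for PIN3 and 78 for YUC9, but 14 for YUC2, 13 for GH3.17, 12 for YUC8, 10 for PIN7, 4 for TAA1 and 1 for YUC6. Within groups, over 30 deviations from group means, YUC6 ran opposite to GH3.5 (-0.795), YUC9 (-0.741), PIN3 (-0.719) and YUC8 (-0.69), values in which VP16-05-014 C takes part.

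SEP3, a flower organ gene in the marker list, was higher in VP16-02-003 than in its pool (log2 fold change 1.16, adjusted p = 0.0401, edgeR), at levels of at most 1.07 CPM in any library.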
